A study of Homo sapiens with 12 samples.

Results

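The genes described here bind, take up, interconvert, break down or sense retinoic acid, and CRABP2, the gene for a cytosolic protein that carries retinoic acid to its nuclear receptors, leads them. The 9 genes, CRABP1, CRABP2, RARA, RARB, RARG, RXRA, CYP26B1, STRA6 and DHRS3, were taken by name from a table of 64253 entries, and each name had a single entry. CRABP2 was chosen because it differed between SOX2_KD and NT2, and the others were listed with earlier results known, so for these 9 genes that comparison, and the comparison of NT2 with NT1, are described without p-values.

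RNA was sequenced from spheroids of H1299, an established line of non-small cell lung carcinoma. The 4 groups of 3 libraries were the controls NT1 and NT2, cells with a lentiviral short hairpin RNA against PRKCI, which encodes atypical protein kinase C iota (PRKCI_KD), and cells with one against SOX2, which encodes a stem cell transcription factor (SOX2_KD). NT1 and PRKCI_KD were read on lane 8 of a flow cell and NT2 and SOX2_KD on lane 7 of another, per the flow cell names in the labels' descriptions, so each knockdown was set against the control of its own flow cell. In the comparison of NT2 with NT1, flow cell, culture and control group cannot be told apart. The labels call both controls NT without saying what they carried, and give neither the number of hairpins per target nor whether replicates were separate cultures. The p-values therefore measure the spread between these libraries, which may be technical.

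Retinol enters some cells through STRA6 and is oxidised to retinal and then to retinoic acid, while DHRS3 turns retinal back into retinol and the CYP26 enzymes break retinoic acid down. Retinoic acid binds the receptors RARA, RARB and RARG, which pair with RXR proteins such as RXRA on DNA elements made of repeated short motifs. RARB, CYP26B1, STRA6, DHRS3 and CRABP2 are themselves known as genes that retinoic acid can induce, and RARB is often silenced in lung cancer.

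A pair of promoters is shown because these belong to the gene, among the 9, with the largest ratio between a knockdown and its control and to the receptor gene with the textbook retinoic acid element. Both are RefSeq windows of 300 bases on GRCh38.p14, 250 bases before the annotated start to 50 bases after it, read 5′ to 3′ on the strand of the gene. The CRABP2 window is chr1:156705735-156706034 on the minus strand, and the RARB window is chr3:25428013-25428312 on the plus strand. Capitals mark a match to a direct repeat of the short motifs.
CRABP2: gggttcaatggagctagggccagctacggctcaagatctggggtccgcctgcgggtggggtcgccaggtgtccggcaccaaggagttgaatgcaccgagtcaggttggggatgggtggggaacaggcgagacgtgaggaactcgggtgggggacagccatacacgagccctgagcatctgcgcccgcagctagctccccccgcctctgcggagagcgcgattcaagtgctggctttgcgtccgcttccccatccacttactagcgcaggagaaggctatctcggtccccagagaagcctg
RARB: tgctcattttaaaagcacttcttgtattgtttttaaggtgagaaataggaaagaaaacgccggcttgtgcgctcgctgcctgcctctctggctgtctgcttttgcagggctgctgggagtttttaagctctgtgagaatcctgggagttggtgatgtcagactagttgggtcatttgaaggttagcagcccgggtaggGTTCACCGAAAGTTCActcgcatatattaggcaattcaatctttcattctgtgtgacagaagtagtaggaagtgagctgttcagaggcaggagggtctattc

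The motif searched was GGTCA or GTTCA followed by another such motif on the same strand at the spacing of a DR1, DR2 or DR5 element, on both strands. The RARB window held a DR5 match at bases -52 to -37 from the start, on the strand of the gene. It was the only match among 21 windows of the 9 genes. Among all 35116 RefSeq windows of the same length, 202 (0.575%) held any of the 3 spacings and 61 (0.174%) held a DR5. A match is a description of letters, and RARB has several annotated starts that a gene-level value does not separate.

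The labels were checked first. PRKCI stood at 13.8, 14.3 and 16.4 RPKM in NT1 and 2.43, 2.58 and 2.49 RPKM in PRKCI_KD (limma log2 change -2.18 with SE 0.09, adjusted p = 1.52e-08). SOX2 stood at 1.41, 1.48 and 1.55 RPKM in NT2 and 0.523, 0.582 and 0.588 RPKM in SOX2_KD (limma log2 change -0.67 with SE 0.06, adjusted p = 0.000219), and it was the 1 listed gene whose values did not come out as whole reads. SOX2 also fell in PRKCI_KD (limma log2 change -0.41 with SE 0.06, adjusted p = 0.000251). RPKM is reads per kilobase of gene and per mega-read of library total, and fold changes here are differences of log2(RPKM + 1), which understate changes of low genes. Library totals were 77.1 to 124.3 M (mega) reads. The epithelial keratins KRT8 and KRT18 and the mesenchymal VIM were abundant in all groups. KRT8 averaged 100.7 RPKM in NT1 and 36.3 in NT2, and KRT18 averaged 108.3 and 55.1. EPCAM was at or below 0.555 RPKM, SFTPC at or below 0.0215 RPKM and the endothelial PECAM1 at or below 0.0815 RPKM. The lung lineage gene NKX2-1 reached 0.945 RPKM in SOX2_KD, and the fibroblast gene COL1A1 reached 1.07 RPKM in NT1.

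CRABP2 was high in 3 of the 4 groups and low in NT2. It measured 26.5, 27.5 and 27.7 RPKM in the NT1 libraries and 24.6, 24.7 and 22.0 RPKM in PRKCI_KD. On the other flow cell it measured 4.40, 4.29 and 4.26 RPKM in NT2 and 26.2, 25.5 and 25.1 RPKM in SOX2_KD. The group means ran from 27.2 ± 0.64 RPKM (SD, n = 3) in NT1 through 25.6 ± 0.58 in SOX2_KD and 23.8 ± 1.5 in PRKCI_KD to 4.32 ± 0.07 in NT2, and no neighbouring groups in that order overlapped. SOX2_KD was thus 5.93 times NT2, and NT1 was 6.31 times NT2. Depth does not limit these values: CRABP2 had 444, 516 and 362 reads in NT2 and 3589, 2587 and 2286 reads in SOX2_KD.

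Within the other pair, CRABP2 fell in PRKCI_KD by a small amount (limma log2 change -0.19 with SE 0.05, adjusted p = 0.00955), and all 3 knockdown libraries lay below all 3 controls. The direction and the call held in all 20 alternative settings, with adjusted p between 0.00749 and 0.047. In that comparison 45.1% of the 19777 genes tested passed the threshold of 0.05, and 27% passed it as lower. In bulk RNA, fewer cells with a transcript and less transcript per cell cannot be told apart. An antisense gene, AL590666.4, overlaps CRABP2 and had no entry of that name to compare with.

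CRABP1, the other cytosolic carrier of retinoic acid, was practically undetected. A single read fell in NT1 replicate 1 and 0 reads in the other 11 libraries, and 3 reads, the limit that a count of 0 allows, would be 0.0243 to 0.0391 RPKM. Limits of this kind cover counting error only.

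**Figure D1:**
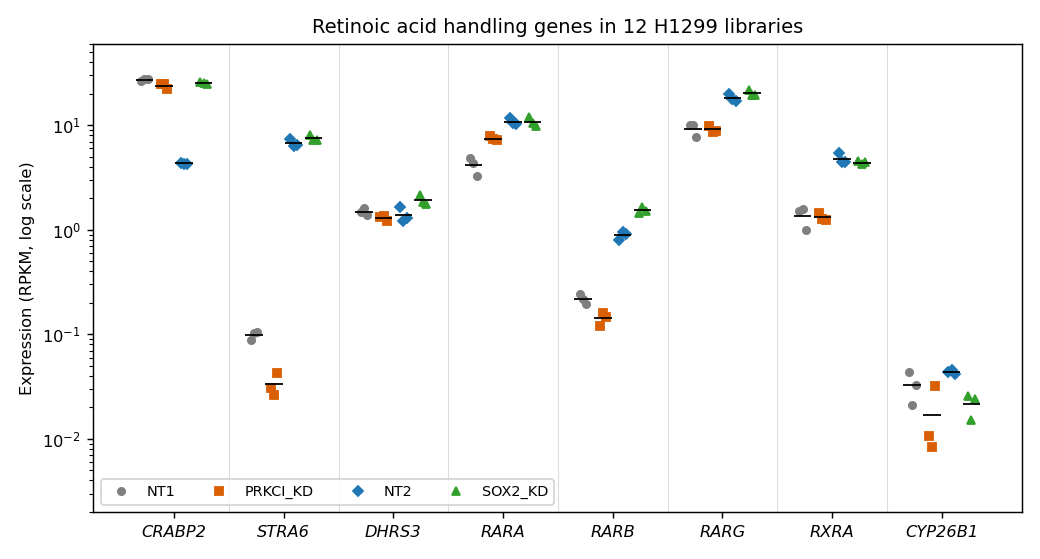
RPKM on a log axis for 8 of the genes in each of the 12 libraries; points are libraries, bars are means of 3 libraries, and CRABP1 is left out because 11 libraries had 0 reads. CRABP2 is low in NT2 alone (4.26 to 4.40 RPKM), while STRA6 separates the flow cells.

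STRA6, the membrane receptor for the retinol carrier protein, separated the flow cells. It stood at 0.0874, 0.103 and 0.105 RPKM in NT1 and 0.0306, 0.0260 and 0.0431 RPKM in PRKCI_KD. In NT2 it stood at 7.33, 6.31 and 6.52 RPKM and in SOX2_KD at 8.11, 7.19 and 7.18 RPKM. The mean of NT2 was 68.4 times that of NT1, while SOX2_KD and NT2 overlapped. The PRKCI_KD libraries held 22, 19 and 29 reads against 80, 75 and 79 in NT1, with no overlap. On the log2(RPKM + 1) scale that difference did not pass (limma log2 change -0.09 with SE 0.06, adjusted p = 0.265). With a pseudocount of 0.1 it did (-0.58, adjusted p = 0.000644, limma), as it did in a fit of the 6 libraries alone (adjusted p = 0.0312).

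DHRS3, the reductase that returns retinal to retinol, varied least between the controls. It measured 1.48, 1.60 and 1.38 RPKM in NT1 and 1.32, 1.36 and 1.20 RPKM in PRKCI_KD. In NT2 it measured 1.67, 1.21 and 1.29 RPKM and in SOX2_KD 2.17, 1.83 and 1.77 RPKM. PRKCI_KD lay just below NT1 without passing the threshold (limma log2 change -0.12 with SE 0.08, adjusted p = 0.252). SOX2_KD lay above NT2 without overlap, at 1.38 times its mean (log2 difference 0.29, SE 0.08).

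CYP26B1, an enzyme that degrades retinoic acid, was close to absent in every library. Its highest value was 0.0456 RPKM, and the libraries held 4 to 26 reads. NT2 held 20, 25 and 16 reads (0.0414 to 0.0456 RPKM) and SOX2_KD held 16, 7 and 10 reads (0.0151 to 0.0257 RPKM), without overlap in RPKM. NT1 and PRKCI_KD overlapped. CRABP1 and CYP26B1 were below the level filter and were not tested, and RARB and STRA6 entered the test only through the libraries of NT2 and SOX2_KD.

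Among the receptors the order of level was RARG, RARA, RXRA, RARB in all 12 libraries. RARA, the receptor subtype found in most tissues, measured 4.90, 4.38 and 3.27 RPKM in NT1 and 7.95, 7.32 and 7.17 RPKM in PRKCI_KD. It rose to 1.79 times its control mean (limma log2 change 0.72 with SE 0.11, adjusted p = 0.000365), and the call held in all 20 alternative settings. In that comparison 18.1% of all genes tested passed as higher. RARA measured 11.7, 10.4 and 10.2 RPKM in NT2 and 12.1, 10.5 and 9.82 RPKM in SOX2_KD, which overlapped. RARA-AS1 lies antisense inside RARA, the library kit does not mark strand, and reads of the pair cannot be told apart where exons overlap. RARA-AS1 also rose in PRKCI_KD, from 0.593 to 0.835 RPKM in NT1 to 1.25 to 1.53 RPKM (limma log2 change 0.50 with SE 0.07, adjusted p = 0.000247), and its part in the RARA value was not tested.

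RARB, the subtype whose promoter carries the DR5 match shown above, was the lowest of the receptors. It measured 0.245, 0.216 and 0.196 RPKM in NT1 and 0.121, 0.160 and 0.145 RPKM in PRKCI_KD, so the groups did not overlap. The difference did not pass at the pseudocount of 1 (limma log2 change -0.09 with SE 0.05, adjusted p = 0.136) and passed at 0.1 (-0.40, adjusted p = 0.0133, limma). In NT2 it measured 0.808, 0.955 and 0.915 RPKM and in SOX2_KD 1.45, 1.65 and 1.52 RPKM. SOX2_KD lay wholly above NT2 at 1.72 times its mean (log2 difference 0.42, SE 0.05). TOP2B overlaps the 3′ end of RARB on the other strand at 24.9 to 38.7 RPKM; between NT2 and SOX2_KD its log2 fold change was -0.01 (SE 0.08). In PRKCI_KD against NT1, TOP2B fell, as RARB lay lower (limma log2 change -0.38 with SE 0.08, adjusted p = 0.00331), and its part in the RARB values was not tested.

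RARG, the subtype best known from skin, measured 9.97, 10.2 and 7.72 RPKM in NT1 and 9.87, 8.62 and 8.89 RPKM in PRKCI_KD (adjusted p = 0.918, limma). It measured 19.9, 18.0 and 17.1 RPKM in NT2 and 21.8, 19.4 and 19.4 RPKM in SOX2_KD, and each knockdown overlapped its control. RXRA, the partner of the 3 RARs, measured 1.51, 1.60 and 0.992 RPKM in NT1 and 1.45, 1.26 and 1.23 RPKM in PRKCI_KD (adjusted p = 0.875, limma). It measured 5.41, 4.47 and 4.43 RPKM in NT2 and 4.53, 4.24 and 4.45 RPKM in SOX2_KD, again with overlap. All 4 receptor genes were higher in NT2 than in NT1 without overlap, with ratios of means of 2.57 for RARA, 4.07 for RARB, 1.98 for RARG and 3.49 for RXRA. Of all genes tested, 35.6% were likewise higher in NT2 without overlap.

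The RARA share of the RAR subtypes did not overlap between the NT1 and PRKCI_KD libraries. RARA made up 30.4% ± 1.74 (SD, n = 3) of the summed RAR RPKM in NT1 and 44.7% ± 0.69 in PRKCI_KD, a difference of 14.2 percentage points (two-sided exact permutation test, p = 0.1, the smallest that 3 against 3 allows). RARG made up 67.9% ± 1.73 in NT1 and 54.5% ± 0.81 in PRKCI_KD. The shares are parts of a whole, and the RARG level itself overlapped between these groups. The RARA share also carries the limit of the RARA value, whose reads are not separated from those of RARA-AS1. RARB made up 2.99% ± 0.44 in NT2 and 4.75% ± 0.59 in SOX2_KD. The summed RAR level was 13.7 ± 2.18 RPKM in NT1, 16.7 ± 1.03 in PRKCI_KD, 30.0 ± 2.19 in NT2 and 32.6 ± 2.50 in SOX2_KD.

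**Figure D2:**
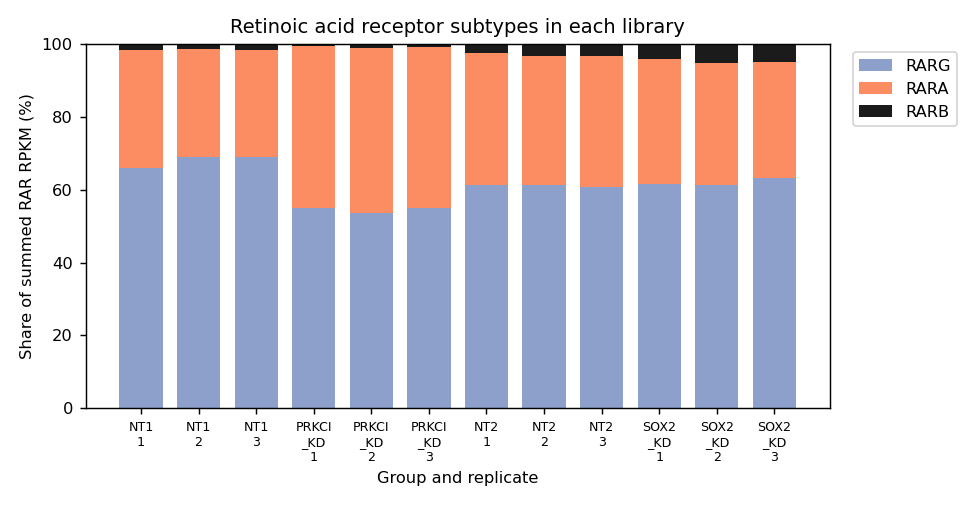
Share of the summed RPKM of RARA, RARB and RARG (vertical axis, percent) in each library (horizontal axis, group and replicate). The RARA share lies between 29.2% and 32.4% in NT1 and between 44.2% and 45.5% in PRKCI_KD.

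Counted together, 2 of the 7 genes tested passed in PRKCI_KD against NT1 (RARA higher and CRABP2 lower), beside 45.1% of all genes, and their median log2 fold change was -0.09 beside -0.04 for all genes. Of the 7, 5 did not overlap between these groups, beside 50.9% of all genes. A pseudocount of 0.1 gave 4 calls, with RARB and STRA6 added, beside 44.2% of all genes. In SOX2_KD against NT2, 3 of the 7 lay above the control without overlap (CRABP2, RARB and DHRS3), beside 12.8% of all genes. The median log2 difference of the 7 was 0.14 beside -0.02 for all genes, and nothing is read from that count because this comparison chose CRABP2. In NT2 against NT1, 6 of 7 did not overlap, 5 higher and CRABP2 lower, beside 77.6% of all genes (35.6% higher and 41.9% lower).

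The surroundings of CRABP2 on chromosome 1 were examined for genes within 100 kb, with the neighbours chosen by position after earlier values had been seen. CRABP2 lies at bases 156699606 to 156705816 on the minus strand in GRCh38 (GENCODE release 29). NES, which encodes the intermediate filament protein nestin, is the nearest protein-coding gene on its 3′ side, 22208 bases away. NES measured 0.443, 0.393 and 0.334 RPKM in NT2 and 2.29, 2.18 and 2.03 RPKM in SOX2_KD. The ratio of SOX2_KD to NT2 is a description, since NES reached the level filter only in the SOX2_KD libraries. None of the other 8 neighbours tested passed in SOX2_KD against NT2, where 3.56% of all genes passed as higher and 8.18% in either direction. NES stood at 0.145, 0.241 and 0.165 RPKM in NT1, so unlike CRABP2 it was low in both controls. BCAN, the brevican gene beyond NES, measured 0.391, 0.352 and 0.258 RPKM in NT2 and 0.679, 0.532 and 0.517 RPKM in SOX2_KD, without overlap but short of the threshold (adjusted p = 0.0769, limma). HAPLN2, on the same side, was below the level filter and not tested. It measured 0.481, 0.257 and 0.202 RPKM in NT2 and 0.538, 0.512 and 0.496 RPKM in SOX2_KD, also without overlap. Of all genes tested, 12.8% were higher without overlap in SOX2_KD. In PRKCI_KD against NT1, 1 of the 9 neighbours passed as higher (RRNAD1) and 4 as lower, beside 18.1% and 27% of all genes.

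**Figure D3:**
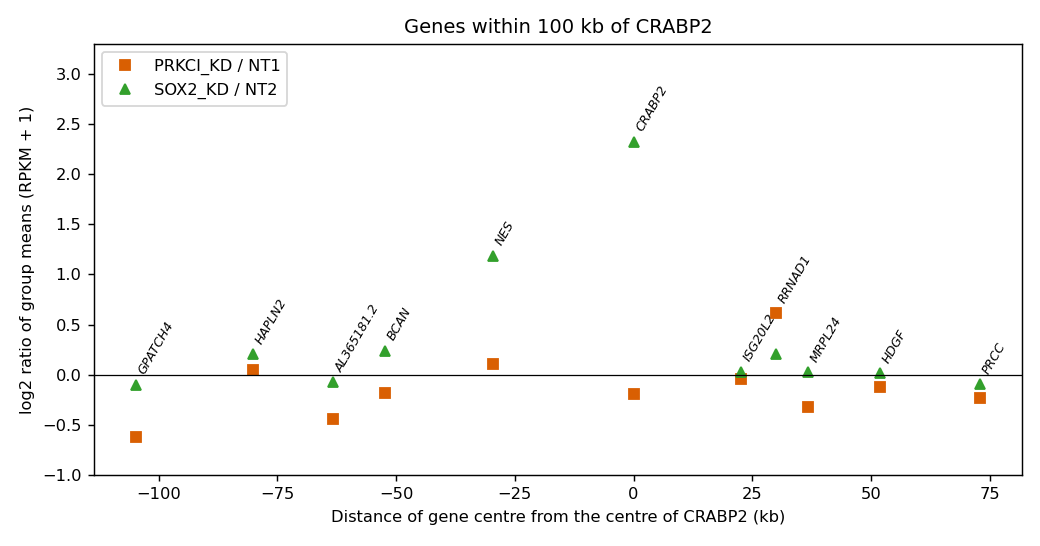
Log2 ratio of group means of RPKM + 1 (vertical axis) for genes within 100 kb of CRABP2, by distance of gene centres in kb (horizontal axis), for PRKCI_KD over NT1 and SOX2_KD over NT2. In SOX2_KD, CRABP2 and NES stand above the other genes.

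The 5 genes whose log2(RPKM + 1) followed CRABP2 most closely over the 12 libraries, of 6127 ranked, were MT2A (r = 0.84), RNA5SP18 (r = 0.84), ZNF516 (r = 0.84), MIR6872 (r = 0.83) and MIR5581 (r = 0.82). The points share flow cells and control groups, so these values only describe. MIR6872 ranged from 0.145 to 4.35 RPKM and MIR5581 from 0.425 to 7.08 RPKM, both lowest in an NT2 library. Read counts were not recovered for these 5 genes, so a limit from depth is open. MT2A, which encodes a metal-binding metallothionein, averaged 161.8 RPKM in NT1, 129.1 in PRKCI_KD, 51.5 in NT2 and 83.5 in SOX2_KD. ZNF516, a zinc finger gene, averaged 6.29, 4.98, 2.44 and 3.70 RPKM in the same order of groups. In all 5 genes NT2 was lowest, but SOX2_KD did not reach the levels of NT1 as closely as in CRABP2.

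Beyond these genes, a wider list of 50 retinoid genes was taken by role. Of these, 46 had a single entry and 22 passed the level filter. ALDH1A1 and ALDH1A3 reached that level only in NT2 and SOX2_KD, and RBP7 and RDH5 only in NT1 and PRKCI_KD. In PRKCI_KD against NT1, 2 rose, 10 fell and 10 did not pass, beside 45.1% of all genes called, with a median log2 fold change of -0.14. Those not passing include ALDH1A1 and ALDH1A3, too low in both groups for log2(RPKM + 1) to show a change. ALDH1A3 held 50, 33 and 41 reads in NT1 and 14, 15 and 21 in PRKCI_KD, without overlap. Enzymes of retinol and retinal redox fell in 3 of 5 cases, beside 27% of all genes. RDH10, the main retinol dehydrogenase on the way to retinoic acid in mouse embryos, fell from 6.83 to 7.56 RPKM in NT1 to 4.38 to 4.65 RPKM (limma log2 change -0.56 with SE 0.05, adjusted p = 1.24e-05). RDH5, a retinol dehydrogenase known from the eye, fell by 0.32 and DHRS4, a retinal reductase, fell by 0.34 on the log2 scale. FABP5, which can carry retinoic acid to the receptor PPARD, fell from 13.7 to 16.5 RPKM to 6.99 to 8.35 RPKM (limma log2 change -0.83 with SE 0.08, adjusted p = 8.97e-06). PPARD itself did not pass (adjusted p = 0.371, limma).

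Of the 7 coregulators tested, 5 fell in PRKCI_KD and none rose, beside 27% of all genes lower and 18.1% higher. NCOA1 and NCOA2, coactivators of nuclear receptors, fell by 0.35 and 0.32 on the log2 scale. NCOR1, a corepressor, fell by 0.38 and TRIM24, a cofactor of nuclear receptors, fell by 0.19. The TRIM24 call was lost without PRKCI_KD replicate 1 (adjusted p = 0.0517, limma) and after quantile normalization (adjusted p = 0.0573, limma). Of the 5 reported targets tested, TNFAIP2 rose from 1.01 to 1.17 RPKM in NT1 to 2.29 to 2.62 RPKM (limma log2 change 0.71 with SE 0.07, adjusted p = 2.06e-05). RARRES3, a retinoid-responsive phospholipase gene, rose by 0.28, and MEIS2, a homeobox gene, fell by 0.49 (adjusted p = 7.52e-06, limma).

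In SOX2_KD against NT2, 2 of the 22 passed, beside 8.18% of all genes, with a median of -0.06. RBP7, among the 22, was listed at 0 in every library of both groups and could not pass. RDH5 stood below the filter level in both groups, at 0.231 to 0.413 RPKM. NCOA3, a coactivator, measured 10.7, 12.7 and 12.6 RPKM in NT2 and 14.3, 16.0 and 15.4 RPKM in SOX2_KD (limma log2 change 0.33 with SE 0.08, adjusted p = 0.0347). ALDH1A3, which makes retinoic acid from retinal, measured 7.04, 7.17 and 7.36 RPKM in NT2 and 6.11, 6.08 and 6.40 RPKM in SOX2_KD (limma log2 change -0.19 with SE 0.04, adjusted p = 0.0204). The count was 0 without NT2 replicate 2, NT2 replicate 3 or SOX2_KD replicate 2, and 1 without NT2 replicate 1, SOX2_KD replicate 1 or SOX2_KD replicate 3. With a block for the replicate number it was 5, beside 17.3% of all genes. That fit added FABP5 (log2 fold change -0.23, adjusted p = 0.0272), NRIP1, a corepressor (-0.21, adjusted p = 0.0205), and TGM2, the tissue transglutaminase gene that retinoic acid can induce (0.38, adjusted p = 0.0127).

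**Figure D4:**
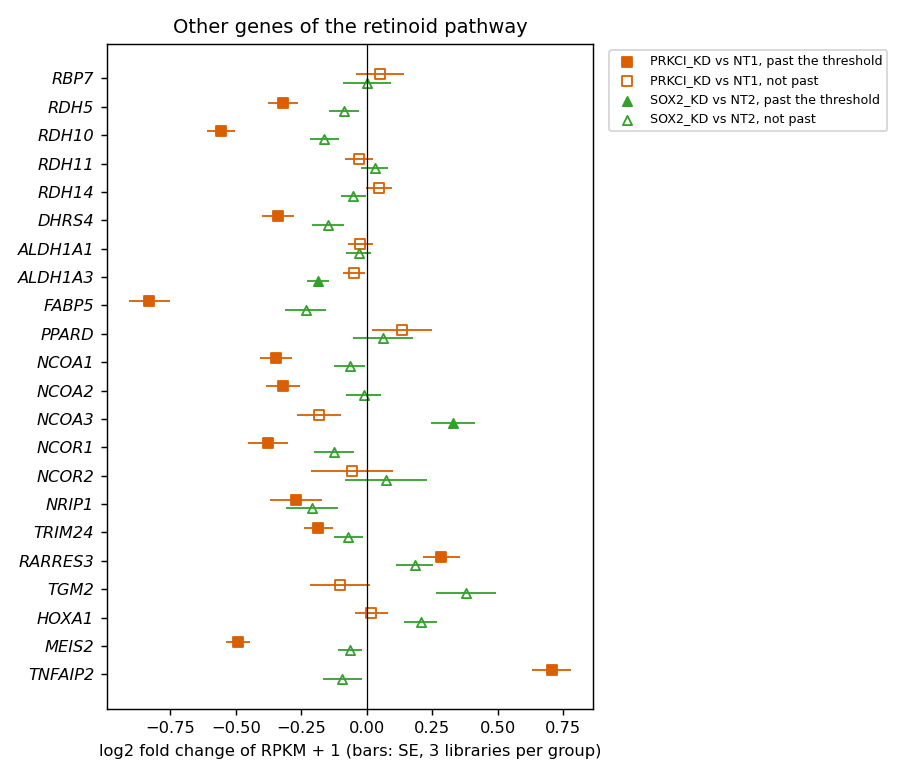
Log2 fold change of RPKM + 1 (horizontal axis, bars are SE, 3 libraries per group) for the 22 tested genes of the wider list in each knockdown against its control; filled symbols passed the threshold. Of the PRKCI_KD points, 12 are filled, and of the SOX2_KD points, 2.

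ALDH1A1 and ALDH1A3, which make retinoic acid, differed between the flow cells more than between knockdown and control. ALDH1A1 stood at 0 to 0.043 RPKM in NT1 and PRKCI_KD and at 181.0 to 201.0 RPKM in NT2 and SOX2_KD. ALDH1A3 stood at 0.0259 to 0.0728 RPKM in the first pair of groups, and RBP7, a cellular retinol-binding protein gene, at 3.78 to 5.04 RPKM there and listed at 0 in all 6 libraries of the second pair. ALDH1A2, of the same role but below the level filter, went the other way. Its means were 0.226 RPKM in NT1, 0.0999 in PRKCI_KD, 0.0062 in NT2 and 0.0049 in SOX2_KD. In NT2 against NT1, 19 of the 22 passed, 5 as higher and 14 as lower, beside 78.3% of all genes (36% higher and 42.2% lower). The lower ones included NCOA2, with means of 30.2 RPKM in NT1 and 3.73 RPKM in NT2 (limma log2 change -2.72 with SE 0.07, adjusted p = 1.12e-11). The difference between the knockdown responses passed for 8 of the 22, 7 of them with the SOX2_KD response above that of PRKCI_KD, beside 26.1% of all genes and 14.8% in that direction.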

How the data were processed

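Expression was measured by RNA sequencing in 12 libraries, 3 in each of 4 groups. Each library took 120 ng of RNA and a kit without strand marking, with paired reads of 101 bases, per the labels' protocols. TopHat2 2.1, Bowtie 1.1.2 and featureCounts were run on GRCh38, per the submitters' processing notes; the annotation used and the strand setting are not given in the sources. The values used are the RPKM that the authors deposited in 1 table. Of its 64253 entries, 7091 with a repeated name or a date in place of a name were left out.

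Read totals and whole reads were recovered from the RPKM values: 64 of 65 listed genes above 0 gave whole reads within 0.001, with totals of 77.1 to 124.3 M reads. For 8 of the 9 genes the recovered length was 1 base above the GENCODE release 29 exon union.

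Tests used limma 3.58.1 in R 4.3.3 (limma-trend on log2(RPKM + 1), 4 group means, 8 residual degrees of freedom), for the 19777 genes that reached 0.5 RPKM in 3 or more libraries, with Benjamini-Hochberg adjustment and a threshold of 0.05. The procedure was tested on simulated data. Genes named are all 9 members and, of the wider list, up to 4 per role and comparison that passed, smallest p first. Members, lists and tests were chosen with earlier results of these data known.

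Pairing was checked by the correlation of deviations from group means. Same-numbered libraries of NT2 and SOX2_KD gave 0.51, 0.24 and 0.24, and NT2 replicate 3 with SOX2_KD replicate 2 also gave 0.24. Whether the numbers pair the libraries is thus not settled, and the main tests used no replicate block. Alternatives were other pseudocounts, level filters and scalings, a replicate block, the 6 libraries of a comparison alone, and each library left out. Promoter sequences come from RefSeq tables. A check of the cell line by 1 further marker is not reported here.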

Additional observations from a re-analysis of the deposited data

Results flagged for a closer look

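CRABP2, RARB and DHRS3 differed in opposite directions in the knockdowns in every library, so that each SOX2_KD library lay above NT2 and each PRKCI_KD library below NT1. Of all genes, 50.9% did not overlap in PRKCI_KD against NT1 in either direction, and 12.8% were higher without overlap in SOX2_KD against NT2. Neither the share lower without overlap in PRKCI_KD nor the share with both in opposite directions was counted. Nothing is therefore read from the number of members with this pattern. In PRKCI_KD, RARB and DHRS3 did not pass at the pseudocount of 1 (adjusted p = 0.136 and 0.252, limma). The SOX2_KD response minus the PRKCI_KD response, in log2(RPKM + 1), was 2.51 for CRABP2, 0.52 for RARB and 0.41 for DHRS3. These differences are given as values and no test of them is reported, because the genes were chosen with the SOX2_KD comparison known.

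In the wider list, the difference between the responses passed limma's interaction test for 8 genes. It was 0.40 for RDH10 (adjusted p = 0.00343), 0.60 for FABP5 (adjusted p = 0.00245), 0.51 for NCOA3 (adjusted p = 0.00829) and 0.43 for MEIS2 (adjusted p = 0.00066). It was 0.28 for NCOA1, 0.31 for NCOA2 and 0.48 for TGM2, with adjusted p of 0.0315, 0.033 and 0.0494 by limma. Leaving out single libraries ended those 3 calls for 7, 7 and 10 of the 12 libraries. TNFAIP2 went the other way, at -0.80 (adjusted p = 0.000291, limma).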

How the results depend on the processing

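Among the 29 genes whose single values were recomputed (7 members and 22 of the wider list), no call reversed its direction in an alternative; for all genes only the counts were recomputed, and the targets, NES and the overlapping genes were not. Over all genes, SOX2_KD against NT2 gave 1618 calls, 3419 with the replicate block, and 681 to 2230 with single libraries left out. Leaving out NT2 replicate 2 or 3 gave 856 or 903, and leaving out SOX2_KD replicate 1, 2 or 3 gave 1075, 691 or 681. The split of 705 higher and 913 lower became 741 and 574 after quantile normalization and 899 and 723 with median-of-ratios scaling. PRKCI_KD against NT1 gave 7734 to 9231 calls and NT2 against NT1 14819 to 15505 with single libraries left out. Members called in PRKCI_KD went from 2 to 4 at a pseudocount of 0.1. Members past the threshold in SOX2_KD, 3 as a description, stood beside 3.56% of all genes as higher. They were 2 in 14 of the 20 alternatives, where DHRS3 was lost, and 2 to 3 with libraries left out. Nothing is read from these SOX2_KD counts, because that comparison chose CRABP2. The wider list in PRKCI_KD went from 12 to 20 without a level filter and ranged from 10 to 13 with libraries left out. In SOX2_KD it went from 2 to 1 without a level filter, 1 after quantile normalization and 5 with the block, and ranged from 0 to 4; in NT2 against NT1 it ranged from 17 to 19, and the difference between responses from 5 to 8. The cause of these shifts was not tested.

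For NT1 and PRKCI_KD, same-numbered libraries gave correlations of 0.49, -0.11 and 0.34, not every library correlated best with its own number, and the block gave 10768 calls against 8928. The block gives no value for NT2 against NT1. Among values for single genes, 2012 kept their side of the threshold or their size, 70 lost it, 26 gained it and 21 moved. Among the 9 members, depth limits CRABP1, CYP26B1 and, in NT1 and PRKCI_KD, STRA6.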
